A study of Mus musculus with 12 samples.

Results

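The 9 genes described here code for eukaryotic elongation factor 2 kinase (Eef2k), for its substrate elongation factor 2 (Eef2), for the kinase mTOR with 3 of its downstream proteins, and for 3 of the kinases that act on initiation factor eIF2. They were picked by symbol, and all 9 were found among the 15855 genes of the table. Eef2k was on the list because of its difference between sham and pMCAO in these data, so that difference is given as a description with no test. The other 8 were listed for their function and were tested in a fit over all genes. RNA was sequenced from EpCAM+ epithelial cells sorted from the whole small intestine of male C57BL6/J mice 24 h after surgery. EpCAM marks the surface of epithelial cells. The pMCAO group (5 samples) had the middle cerebral artery occluded permanently, a model of ischaemic stroke, and the sham group (7 samples) had the surgery without the occlusion. The labels name no genetic modification in either group and gave each sample as a biological replicate, so the p-values below measure the spread between these samples.

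Protein synthesis is controlled mainly at initiation and at elongation. During elongation, Eef2 moves the ribosome along the messenger RNA, and Eef2k, a kinase switched on by calcium, phosphorylates Eef2 and slows this step. The mTOR complex 1 pathway promotes translation: it activates the S6 kinase Rps6kb1, which in turn restrains Eef2k. It also inactivates Eif4ebp1 and Eif4ebp2, repressors that bind the cap-binding protein eIF4E. The kinases Eif2ak2 (PKR, which senses double-stranded RNA), Eif2ak3 (PERK, which senses stress of the endoplasmic reticulum) and Eif2ak4 (GCN2, which senses missing amino acids) phosphorylate eIF2, which lowers general initiation while messages such as Atf4 are translated more. All of these proteins are regulated largely by phosphorylation, which RNA levels do not measure.

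Eef2k and Eef2 are a kinase and its substrate whose RNA levels are set side by side here, and the 250 bases before their annotated starts are shown because both held the 6-letter E-box CACGTG, printed in capitals. The sequences are from RefSeq on GRCm38.p6, both on the plus strand, at chr7:120842581-120842830 for the first of the annotated Eef2k starts and at chr10:81176381-81176630 for Eef2.
Eef2k: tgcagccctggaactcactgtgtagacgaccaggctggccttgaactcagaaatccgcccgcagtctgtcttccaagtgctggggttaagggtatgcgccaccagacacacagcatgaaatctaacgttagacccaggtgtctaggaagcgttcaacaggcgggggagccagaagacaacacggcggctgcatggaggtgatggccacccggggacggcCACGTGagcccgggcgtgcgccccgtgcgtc
Eef2: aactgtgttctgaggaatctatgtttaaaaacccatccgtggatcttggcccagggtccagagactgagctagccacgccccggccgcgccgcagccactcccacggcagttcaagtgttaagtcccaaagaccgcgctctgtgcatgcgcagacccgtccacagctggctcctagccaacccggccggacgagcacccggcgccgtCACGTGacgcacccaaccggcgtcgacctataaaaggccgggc
The E-box reads the same on both strands. It was found in 6.02% of the 32851 RefSeq promoters of the same length, and among the 11 promoters of the 8 genes that could be matched (Eif4ebp1 had no entry) it was found in these 2 only. The other 3 letter strings searched on both strands were GGGCGG, found in 32.7% of all promoters, TGACGTCA, found in 1.55%, and CCAAT, found in 33.9%. The Eef2k stretch held GGGCGG on the opposite strand, which reads ccgccc in the printed letters, and neither of the other strings. The Eef2 stretch held none of the 3. These matches describe the letters and nothing else.

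The total count per sample ranged from 7418730 to 31925579, and between 14.6% and 54.5% of it fell on mitochondrial ribosomal RNA. The total (mean ± SD) was 13442588 ± 7130286 in sham and 22183984 ± 8722524 in pMCAO (two-sided exact permutation p = 0.0934). The ribosomal share was 35.6 ± 13.5% in sham and 24.5 ± 8.47% in pMCAO (two-sided exact permutation p = 0.136). Adjusted over 8 permutation tests, both p-values were 0.545. The part of depth and of this share in the levels of the 9 genes was not tested. Values are CPM, the reads of a gene relative to all reads of its library, scaled by TMM, a factor that adjusts each library for its composition, unless stated otherwise, and a value with ± is the mean and SD of 7 sham or 5 pMCAO samples unless another n is given. A floor of 3 counts was equal to between 0.094 and 0.404 CPM of the deposited scale, a limit that covers counting error only. Libraries fell into 4 runs of consecutive library numbers. Run 1 held sham replicates 1, 2 and 3 and pMCAO replicate 1, run 2 held sham replicates 4 and 5 and pMCAO replicates 2 and 3, run 3 held sham replicate 6 and pMCAO replicates 4 and 5, and run 4 held sham replicate 7 alone. The runs were not given by the labels. They were taken from an earlier analysis of these data that had chosen them to match the fold changes the authors deposited, so fits with runs are not independent of the authors' results. The 4 libraries of run 1 stood apart: the first principal component (40.5% of the variance) separated them from the others, and they had 13386 to 14712 genes detected against 15343 to 15766 in the later 8. Fits of the 9 genes with and without them are therefore given below.

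The sorted cells carried epithelial RNA, with all 10 epithelial markers in the table and Epcam at 1674 ± 548 TMM-scaled CPM in sham and 1267 ± 710 in pMCAO. Leukocyte RNA was present as well. All 16 leukocyte markers were in the table, with Ptprc, the pan-leukocyte antigen CD45, at 54.9 ± 43.5 CPM in sham and 44.2 ± 20.3 in pMCAO, and their summed level ranged from 59.9 to 757 CPM in sham and from 86.6 to 563 in pMCAO. Of 14 stromal and endothelial markers, 3 (Vim, Pecam1 and Pdgfrb) were in the table, summing to between 2.79 and 15.2 CPM. The summed levels did not separate the groups in two-sided exact permutation tests with 792 possible arrangements (leukocyte p = 0.973, stromal and endothelial p = 0.511, epithelial p = 0.628, villus enterocyte p = 0.626, crypt and proliferation p = 0.986). Adjusted over 8 tests, which included total count, genes detected and share of mitochondrial ribosomal RNA, the p-values of the sums were at least 0.837. Of 12 villus enterocyte markers, 9 had a higher fitted level in pMCAO and 5 had an unadjusted limma p under 0.05, which 8.43% of all genes had. Sis, the brush border enzyme sucrase-isomaltase, had 1391 ± 550 CPM in sham and 2979 ± 1331 in pMCAO and was called with library run as a term (log2 fold change 0.74, SE 0.14, limma adjusted p = 0.0337). Of 15 leukocyte markers tested, 13 had a higher fitted level in pMCAO, and 2 had an unadjusted p under 0.05 with the group alone and 6 with runs, which 12.7% of all genes had. The part of these markers in the levels of the 9 genes was not tested. In bulk samples, fewer cells of a type and less RNA per cell cannot be told apart.

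Eef2k RNA was lower in every pMCAO sample than in every sham sample. Eef2k (ENSMUSG00000035064) lies on chromosome 7 at 120842831 to 120907450 of GRCm38, on the plus strand, with 7408 exonic bases. In the sham group it ranged from 35.4 to 102.6 CPM with a median of 68.6. In the pMCAO group the 5 samples had 28.5, 15.5, 29.6, 9.60 and 9.96 CPM. The groups therefore did not overlap, the nearest samples being pMCAO replicate 3 (29.6 CPM) and sham replicate 7 (35.4 CPM). The mean was 73.9 ± 27.4 CPM in sham and 18.6 ± 9.82 in pMCAO, a ratio of 3.96 of sham over pMCAO, and the fitted log2 fold change was -2.03 (SE 0.35, 95% confidence interval -2.76 to -1.29). These values chose the gene, so the interval is part of the description and does not test the difference.

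Since every pMCAO sample was under every sham sample, Eef2k was also lower in pMCAO in each library run that held both groups. That outcome was fixed beforehand and adds no support, and the values within runs are a description. In run 1, pMCAO replicate 1 had 28.5 CPM while the 3 sham samples had 102.3, 102.6 and 68.04. In run 2, pMCAO replicates 2 and 3 had 15.5 and 29.6 CPM against 44.7 and 95.7 in sham. In run 3, both pMCAO samples were under 10 CPM against 68.6 in sham. The log2 difference within the runs was -1.64, -1.61 and -2.80, and the fit with library run as a term gave -1.99 (SE 0.27). Without run 1, the fit with the group alone gave -1.87 (SE 0.37). The raw counts of Eef2k ranged from 120 to 2680, so that counting error alone gave a coefficient of variation of 1.93% to 9.13%, well under the spread within the groups.

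How libraries were scaled changed whether the groups of Eef2k overlapped. On the deposited CPM scale, which has no composition factor, pMCAO replicate 3 had 40.2 CPM and sham replicate 3 had 38.0, and pMCAO was lower in 34 of 35 pairs of samples. When mitochondrial ribosomal RNA was left out of the totals, pMCAO was lower in 35 of 35 pairs. Of all 14462 genes tested, 0.194% had groups that did not overlap with pMCAO lower and 0.311% had pMCAO higher, on the TMM scale. Among the 9 genes, Eef2k was the only one without overlap.

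**Figure D1:**
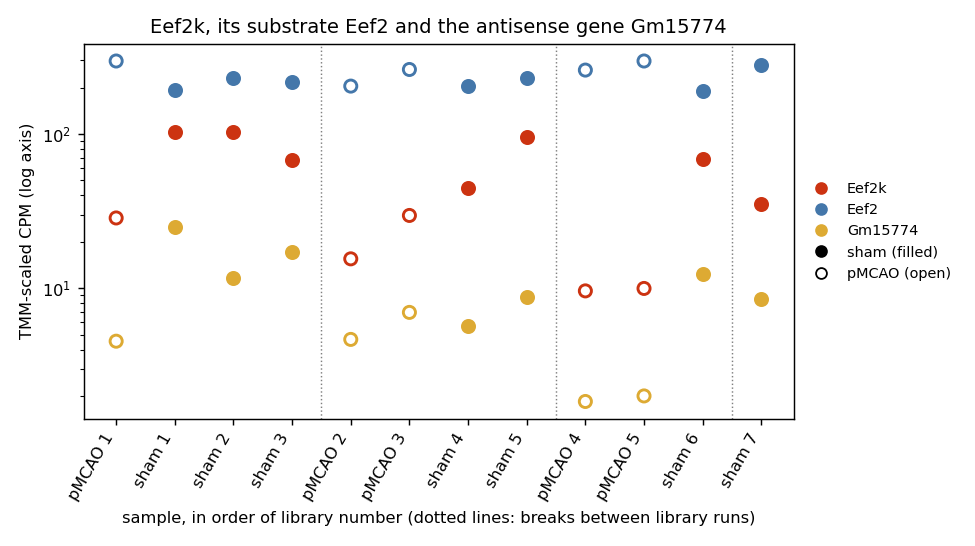
Eef2k, Eef2 and the antisense gene Gm15774 in each of the 12 samples, in order of library number, as TMM-scaled CPM on a log axis. Filled points are sham and open points pMCAO samples, and dotted lines mark the breaks between library runs. In runs 1 to 3 every open Eef2k point lies under the filled ones, from 9.60 to 29.6 CPM against 44.7 to 102.6, while Eef2 stays between 191.5 and 297.6 CPM.

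A gene on the opposite strand also had a lower mean in pMCAO. Gm15774, an antisense gene whose exons overlap 101 bases (1.36%) of the Eef2k exons, had 12.7 ± 6.47 CPM in sham and 4.00 ± 2.13 in pMCAO. Its log2 fold change was -1.51 (SE 0.41, limma adjusted p = 0.316), and within runs 1, 2 and 3 it was -1.89, -0.31 and -2.63. Whether reads were counted by strand was not stated, so reads of the 2 genes over the shared bases cannot be told apart. No other annotated gene had a transcript at least 95% identical to Eef2k over at least 200 bases.

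Eef2, the translocase of the elongating ribosome, was the most abundant of the 9 genes and was not called different. In sham it ranged from 191.5 to 282.1 CPM with a median of 217.6. In pMCAO the samples had 297.6, 204.6, 262.2, 259.9 and 297.6 CPM. The groups overlapped over most of their range. In the fit its log2 fold change was 0.26 (SE 0.16, 95% interval -0.09 to 0.61, limma adjusted p = 0.673), and with library run it was 0.34 (SE 0.14, adjusted p = 0.315). Gm13050, a gene 97.0% identical to Eef2 over 1345 bases, had at most 2.70 CPM in any sample.

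The ratio of substrate to kinase, from their levels per kilobase of exon, is given too. Its size depends on the exon lengths used, which merge all annotated exons of a gene and are the same in both groups. Eef2 over Eef2k was 7.997 ± 4.73 in sham, from 4.23 to 17.8, and 39.9 ± 21.9 in pMCAO, from 19.7 to 66.6. The ratios of the groups did not overlap, which rests on the Eef2k values that chose the gene.

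None of the 4 mTOR-arm genes was called different between the groups. Mtor, the kinase itself (ENSMUSG00000028991, chromosome 4, 148448611 to 148557683, plus strand), ranged from 27.9 to 76.3 CPM in sham with a median of 40.3. The pMCAO samples had 48.5, 33.9, 38.0, 57.0 and 46.9 CPM and lay inside the sham range. Its log2 fold change was -0.01 (SE 0.24, 95% interval -0.53 to 0.50, limma adjusted p = 0.991). The difference was not the same in each run, with -0.41, -0.15 and 0.53 in runs 1, 2 and 3, and the fit without run 1 gave 0.27 (SE 0.21).

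Rps6kb1, the S6 kinase that phosphorylates Eef2k (ENSMUSG00000020516, chromosome 11, 86498871 to 86544805, minus strand), varied little between samples. It ranged from 23.8 to 31.3 CPM in sham with a median of 26.8, and had 24.8, 34.7, 28.5, 34.9 and 32.4 CPM in pMCAO. Of the pMCAO samples, 3 were above the highest sham sample and the others were within the sham range. The fitted log2 change was 0.21 (SE 0.16, 95% interval -0.13 to 0.56, limma adjusted p = 0.729). Rnft1 on the opposite strand shares 155 exonic bases with it and had a fitted log2 change of -0.05 (SE 0.23).

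The 2 repressors of eIF4E differed in how far their groups overlapped. Eif4ebp1 (ENSMUSG00000031490, chromosome 8, 27260329 to 27276674, plus strand) ranged from 7.86 to 16.9 CPM in sham with a median of 12.2, and had 30.1, 12.9, 10.2, 6.88 and 11.4 CPM in pMCAO. A single library, pMCAO replicate 1, was above all others. The log2 fold change was 0.14 (SE 0.31, 95% interval -0.52 to 0.79, limma adjusted p = 0.924), and without pMCAO replicate 1 it was -0.04.

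Eif4ebp2 (ENSMUSG00000020091, chromosome 10, 61428491 to 61452661, minus strand) ranged from 14.6 to 20.99 CPM in sham with a median of 16.8. In pMCAO it had 15.1, 24.4, 22.8, 28.6 and 28.1 CPM, so that 4 of the 5 samples were above every sham sample and pMCAO replicate 1 was not. In the fit its log2 fold change was 0.50 (SE 0.20, 95% interval 0.08 to 0.91), with a limma p of 0.0214 before adjustment and 0.513 after it. Within runs 1, 2 and 3 the difference was -0.25, 0.52 and 0.68, and without run 1 it was 0.65 (SE 0.20, adjusted p = 0.620). The gene did not pass the adjusted threshold in the fits made.

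None of the 3 eIF2 kinases was called different. Eif2ak2, the kinase PKR (ENSMUSG00000024079, chromosome 17, 78852564 to 78882573, minus strand), ranged from 51.0 to 93.4 CPM in sham with a median of 69.7, and had 73.2, 46.7, 45.3, 56.2 and 56.8 CPM in pMCAO. The fitted log2 change was -0.35 (SE 0.19, limma adjusted p = 0.628). Its sign was the same within each run (-0.25, -0.43 and -0.30), and with library run as a term it was -0.34 (SE 0.13, limma adjusted p = 0.284). Gm26637 on the opposite strand shares 174 exonic bases with it and had at most 4.62 CPM in any sample.

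Eif2ak3, the kinase PERK (ENSMUSG00000031668, chromosome 6, 70844515 to 70905245, plus strand), was widely spread within both groups. It ranged from 53.2 to 152.4 CPM in sham with a median of 106.2, and had 134.2, 51.8, 82.3, 31.8 and 43.2 CPM in pMCAO. In pMCAO replicates 2, 4 and 5 it was below every sham sample, while pMCAO replicate 1 was above the sham median. The log2 fold change was -0.71 (SE 0.34, 95% interval -1.43 to 0.01, limma adjusted p = 0.602), with 0.12, -0.45 and -0.97 within runs 1, 2 and 3. With library run as a term it was -0.47 (SE 0.25, adjusted p = 0.450).

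A gene on the strand opposite to Eif2ak3 had a lower mean in pMCAO as well. Gm43292 (RP24-122N23.3 in the table) shares 485 exonic bases with it, 8.05% of its exons, and had 13.8 ± 4.28 CPM in sham and 7.16 ± 3.93 in pMCAO. Its log2 fold change was -1.01 (SE 0.35, limma adjusted p = 0.453). Its part in the Eif2ak3 values was not tested.

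Eif2ak4, the kinase GCN2 (ENSMUSG00000005102, chromosome 2, 118388618 to 118475234, plus strand), had the fewest reads of the 9 genes, from 11 to 523 counts per sample. It ranged from 2.65 to 13.8 CPM in sham with a median of 6.58, and had 1.71, 9.56, 12.1, 5.12 and 7.51 CPM in pMCAO. The groups overlapped over most of that range. In the fit its log2 fold change was 0.18 (SE 0.45, 95% interval -0.78 to 1.14, limma adjusted p = 0.931).

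**Figure D2:**
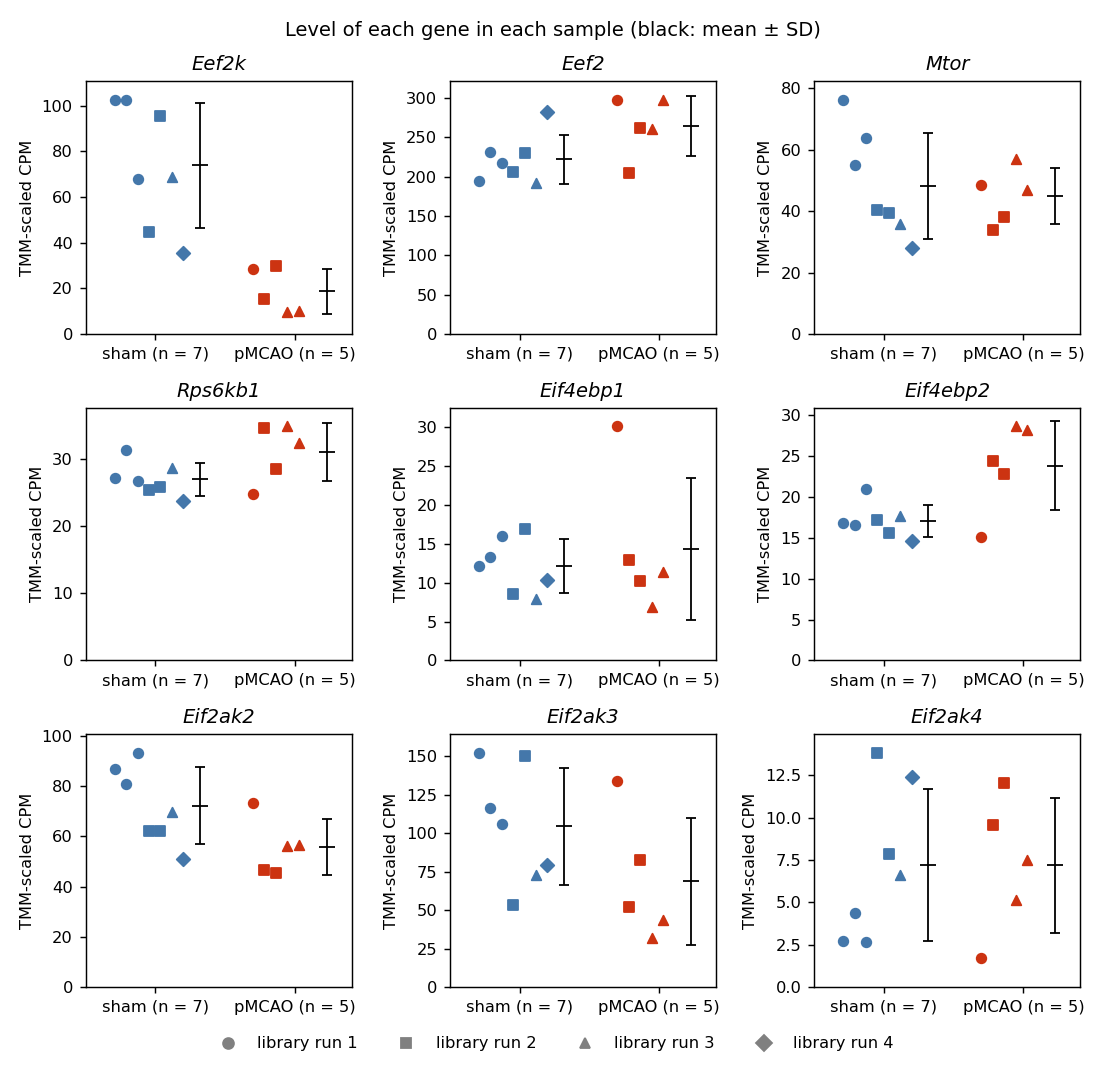
Level of each of the 9 genes in each sample as TMM-scaled CPM on linear axes from 0, with sham in blue, pMCAO in red and the marker shape giving the library run. Black lines are the mean ± SD of each group. The 5 pMCAO samples lie under the 7 sham samples for Eef2k and overlap with them for the other 8 genes.

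In the fit with the group alone, 0 of the 14462 genes tested (0%) passed an adjusted p of 0.05, so none of the 9 did. The smallest adjusted p of any gene was 0.0557. At an unadjusted p under 0.05, 8.43% of all genes passed, 4.66% higher and 3.77% lower in pMCAO. Of the 8 genes listed for their function, Eif4ebp2 passed on the higher side and none on the lower. With library run as a term, 0.477% of all genes passed the adjusted threshold and 12.7% had an unadjusted p under 0.05. None of the 8 passed the adjusted threshold there, and Eef2, Eif4ebp2 and Eif2ak2 had an unadjusted p under 0.05. The median log2 fold change of all genes was 0.06 with the group alone and 0.01 with runs.

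Without the 4 libraries of run 1, 0 genes passed the adjusted threshold. The log2 fold change was then 0.18 (SE 0.18) for Eef2, 0.31 (SE 0.18) for Rps6kb1 and 0.09 (SE 0.30) for Eif4ebp1. Of the eIF2 kinases, Eif2ak2 had -0.26 (SE 0.17), Eif2ak3 had -0.72 (SE 0.32) and Eif2ak4 had 0.07 (SE 0.32). Each of these 6 kept the sign it had over all 12 samples, and Mtor, given above, did not.

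**Figure D3:**
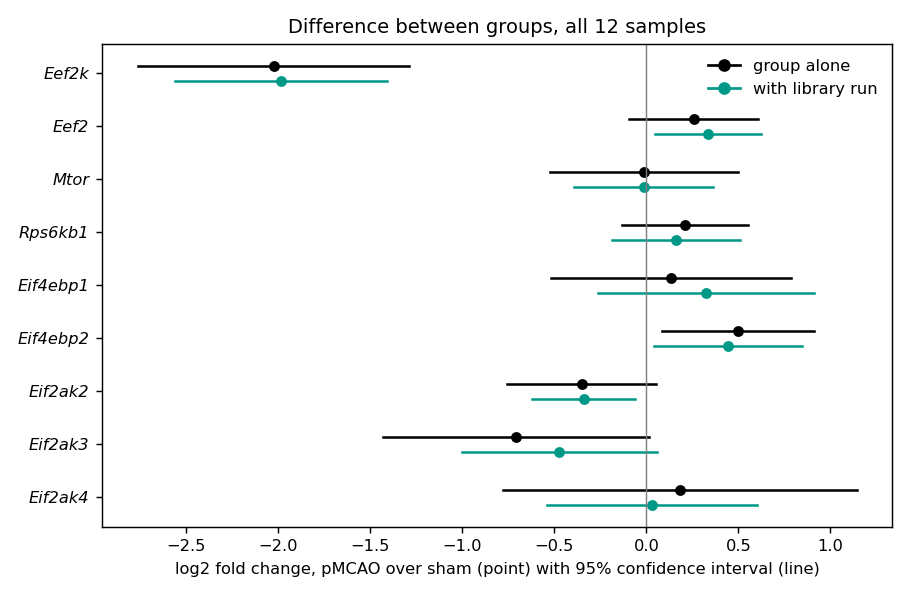
Log2 fold change of pMCAO over sham for each gene (point) with its 95% confidence interval (line), from the fit with the group alone (black) and with library run as a term (green), over the 12 samples. The Eef2k point lies at -2.03, the value that chose the gene, so its interval is a description and not a test. With the group alone the intervals of the other genes except Eif4ebp2 include 0.

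Levels of the 9 genes were also compared between library runs, a contrast that was not used to choose them. With the group as a term, 19.1% of all genes differed between run 1 and the later libraries at the adjusted threshold of 0.05, and 9.2% were lower in run 1. Of the 9 genes, 4 passed, a count that fell when most of the single libraries were left out. Mtor was higher in run 1, with 60.9 ± 12.02 CPM (SD, n = 4) against 39.9 ± 8.80 (SD, n = 8), a log2 difference of 0.65 (SE 0.20, limma adjusted p = 0.0343). Eif2ak2 had 83.6 ± 8.55 against 56.2 ± 8.36 CPM, a log2 difference of 0.51 (SE 0.15, adjusted p = 0.0270). Eif2ak3 had 127.3 ± 20.3 against 70.6 ± 36.8 CPM, a log2 difference of 0.86 (SE 0.28, adjusted p = 0.0384).

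Of the genes that passed, Eif2ak4 was the only one lower in run 1, with 2.86 ± 1.10 against 9.36 ± 3.11 CPM, a log2 difference of -1.74 (SE 0.54, limma adjusted p = 0.0312). Its run 1 and later samples did not overlap (at most 4.35 against at least 5.12 CPM). Those of Eif2ak2 did not overlap either (at least 73.2 against at most 69.7 CPM). The share of all genes without overlap in this contrast was not counted. The median log2 difference of all genes in this contrast was -0.15. Eef2k itself was 0.69 (SE 0.31, adjusted p = 0.121) and Eif4ebp1 was 0.86 (SE 0.30, adjusted p = 0.0548). Eef2 (0.03), Rps6kb1 (-0.09) and Eif4ebp2 (-0.25) differed by less than 0.3 with adjusted p between 0.470 and 0.926. The count of 4 fell to 0 without sham replicate 1 or sham replicate 2, to 1 without sham replicate 3, sham replicate 4 or pMCAO replicate 1, and to 2 in the 7 sham samples alone. It also fell without sham replicate 6, sham replicate 7, pMCAO replicate 2 or pMCAO replicate 5, and rose to 6 without sham replicate 5.

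**Figure D4:**
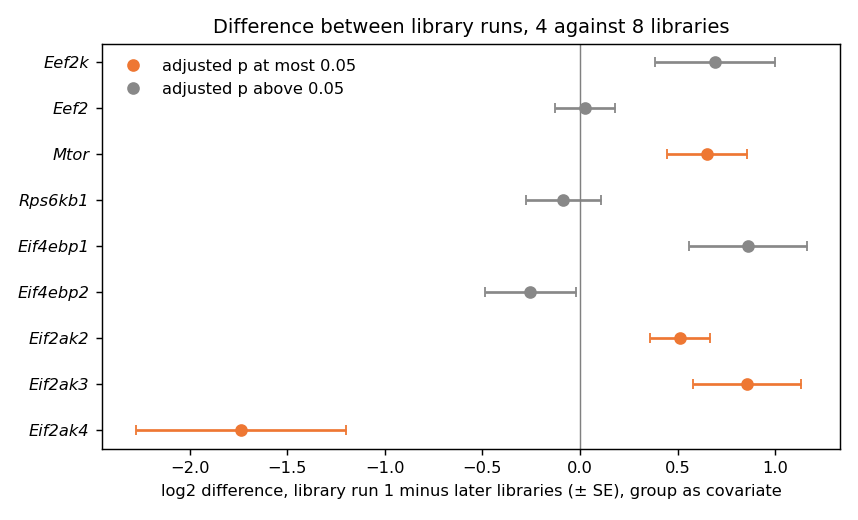
Log2 difference between the 4 libraries of run 1 and the 8 later libraries for each gene (point) with its SE (line), with group as a term. Orange points have an adjusted p of at most 0.05. Mtor, Eif2ak2 and Eif2ak3 lie to the right of 0 and Eif2ak4 lies at -1.74.

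Levels of different genes were set side by side per kilobase of exon, with all annotated exons of a gene merged. Which transcripts were in use was not tested, so the order is approximate. Over the 12 samples it was led by Eef2 at 72.1 ± 11.8 CPM per kilobase (SD, n = 12), above Eif2ak3 in 12 of 12 samples. Eif2ak3 (14.9 ± 6.94) and Eif2ak2 (12.8 ± 3.07) followed and were not separated, since Eif2ak3 was the higher one in 6 of 12 samples. Eef2k (6.87 ± 4.78) was under Eif2ak2 in 11 of 12 samples and above Eif4ebp1 (5.94 ± 2.81) in 7 of 12. Mtor (4.64 ± 1.38), Eif4ebp2 (3.44 ± 0.87) and Rps6kb1 (3.31 ± 0.44) came next. Eif4ebp1 was above Mtor, and Mtor above Eif4ebp2, in 9 of 12 samples each. Eif4ebp2 was above Rps6kb1 in 6 of 12. Eif2ak4 was the lowest at 0.96 ± 0.55, under Rps6kb1 in 12 of 12 samples. The place of Eef2k depended on the group, with 9.98 ± 3.70 CPM per kilobase in sham and 2.52 ± 1.33 in pMCAO.

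Among the other 8 genes, Eif2ak3 followed Eef2k most closely across samples. The Pearson correlation of their log2 CPM was 0.81 over the 12 samples and 0.87 after each group's mean was subtracted. The corresponding values were 0.65 and 0.40 for Eif2ak2 and -0.76 and -0.46 for Eif4ebp2. These are descriptions over 12 samples that share library runs and scaling factors.

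The 5 genes most like Eef2k over the 12 samples, of all genes tested, were St3gal1, a sialyltransferase (r = 0.969), 9130230L23Rik (0.969), the splicing regulator Mbnl2 (0.965), Pced1a (0.958) and Ankrd37 (0.953). A high correlation with Eef2k, a gene chosen for its difference between the groups, selects genes that are lower in pMCAO, and the means of these 5 are a description only. St3gal1, for example, had 141.8 ± 66.6 CPM in sham and 30.5 ± 27.2 in pMCAO. After the group mean was subtracted, the 5 most alike were the nuclear long noncoding RNA Neat1 (r = 0.942), the forkhead factor Foxn3 (0.942), Cnot4 (0.939), Nyx (0.934) and Syne3 (0.932). Neat1 had 3695 ± 1452 CPM in sham and 2416 ± 1256 in pMCAO, a fitted log2 change of -0.69 (SE 0.35, limma adjusted p = 0.607).

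The wider translation control pathways were covered by 7 lists with 137 genes, which hold the 9 genes except Eef2k, of which 130 could be tested. None passed the adjusted threshold with the group alone or with library run as a term. At an unadjusted p under 0.05, 8 genes were higher and 3 lower in pMCAO, 8.46% of the 130, next to 8.43% of all genes. With runs, 19.2% of the 130 had an unadjusted p under 0.05, next to 12.7% of all genes. The median log2 fold change of the 130 was 0.11, with 79 higher and 51 lower.

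The elongation factors (12 genes tested) had a median log2 fold change of 0.34, with 9 higher and 3 lower (55.2% of all genes were higher). None had an unadjusted p under 0.05 with the group alone, and 5 (41.7%) had one with runs, next to 8.43% and 12.7% of all genes. Eef1a1, which brings aminoacyl-tRNA to the ribosome, had 311 ± 182 CPM in sham and 444.5 ± 87.4 in pMCAO, a fitted log2 change of 0.67 (SE 0.34, limma adjusted p = 0.603). With runs it was 0.68 (SE 0.15, adjusted p = 0.0599). Eef1a1 has 9 near-identical copies in the annotation, so its counts are uncertain. Etf1, the release factor that ends translation, had a fitted log2 change of 0.44 (SE 0.21, adjusted p = 0.602).

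The enzymes that build diphthamide, the modified histidine of Eef2 (5 tested), had a median of 0.27. With the group alone 1 (20%) had an unadjusted p under 0.05, next to 8.43% of all genes. With runs 2 (40%) had one, next to 12.7%. Dph3 had 4.61 ± 2.78 CPM in sham and 9.01 ± 4.15 in pMCAO, a fitted log2 change of 0.86 (SE 0.36, limma adjusted p = 0.543), and Dph6 had 0.99 (SE 1.03, adjusted p = 0.807). The regulators upstream of Eef2k (23 tested, among them the AMPK subunits, the kinases that phosphorylate it and the ligase that degrades it) had a median of 0.003. None passed at the unadjusted level with the group alone and 1 (4.35%) with runs, next to 8.43% and 12.7% of all genes. Prkag2, an AMPK subunit, had a fitted log2 change of 0.67 (SE 0.37, limma adjusted p = 0.631).

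The mTOR complexes and their upstream regulators (30 tested) had a median of 0.08. With the group alone 1 (3.33%) passed at the unadjusted level and with runs 0, next to 8.43% and 12.7% of all genes. Ddit4, an inhibitor of mTOR complex 1 induced by stress, had 7.53 ± 3.70 CPM in sham and 11.9 ± 2.67 in pMCAO, a fitted log2 change of 0.62 (SE 0.28, limma adjusted p = 0.577).

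The mTOR targets and cap-binding genes (22 tested) had a median of 0.11. At the unadjusted level 4 (18.2%) passed, all higher, both with the group alone and with runs, next to 8.43% and 12.7% of all genes. Eif4ebp3, the third eIF4E repressor of the family, had 0.32 ± 0.26 CPM in sham and 2.99 ± 1.18 in pMCAO. Its log2 fold change was 2.79 (SE 0.63, limma adjusted p = 0.191), with 4.43, 1.90 and 2.79 within runs 1, 2 and 3 and an adjusted p of 0.0600 with runs. The sham level was near that of a few counts, and 67.3% of its exonic bases also belong to another annotated gene on its strand. Mknk2, a kinase of the cap-binding protein eIF4E, had 16.2 ± 5.40 CPM in sham and 25.9 ± 3.62 in pMCAO, a fitted log2 change of 0.77 (SE 0.21, adjusted p = 0.318, with runs 0.0674).

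The eIF2 kinases, eIF2 and eIF2B (19 tested) had a median of 0.13. With the group alone 2 genes (10.5%) passed at the unadjusted level, both lower, next to 8.43% of all genes. With runs 7 (36.8%) did, 3 higher and 4 lower, next to 12.7%. Ppp1r15a, the stress-induced subunit that directs dephosphorylation of eIF2, had 30.4 ± 10.9 CPM in sham and 14.3 ± 4.62 in pMCAO, a fitted log2 change of -0.97 (SE 0.29, limma adjusted p = 0.350) and -1.27, -0.53 and -0.82 within runs. Nck1, an adaptor that also binds eIF2, had 17.4 ± 2.69 and 10.9 ± 3.17 CPM, a fitted log2 change of -0.72 (SE 0.23, adjusted p = 0.390).

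The ATF4 target list (21 tested) had a median of 0.50 with the group alone and 0.14 with runs. With the group alone 3 genes (14.3%) passed at the unadjusted level, 2 higher and 1 lower, next to 8.43% of all genes. With runs 6 (28.6%) did, all higher, next to 12.7%. Shmt2, a mitochondrial enzyme of serine metabolism, had 0.59 ± 0.64 CPM in sham and 1.89 ± 1.05 in pMCAO, a fitted log2 change of 2.08 (SE 0.80, limma adjusted p = 0.510). Its sham samples ranged from 0 to 1.85 CPM with a median of 0.38, near the level of a few counts. With runs its log2 change was 1.51 (SE 0.56, limma adjusted p = 0.269). Wars, a tryptophanyl-tRNA synthetase, had 15.7 ± 10.3 and 32.0 ± 18.2 CPM, a fitted log2 change of 1.05 (SE 0.49, adjusted p = 0.592). With runs it was 0.98 (SE 0.31, adjusted p = 0.193). Wars was also lower in run 1 than in the later libraries (log2 difference -1.91, limma adjusted p = 0.0125). In that contrast 6 of the 21 genes were called, next to 19.1% of all genes. The part of the runs in the group means was not tested. Atf4 itself had 76.0 ± 15.8 CPM in sham and 72.8 ± 8.61 in pMCAO, a fitted log2 change of -0.05 (SE 0.17).

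**Figure D5:**
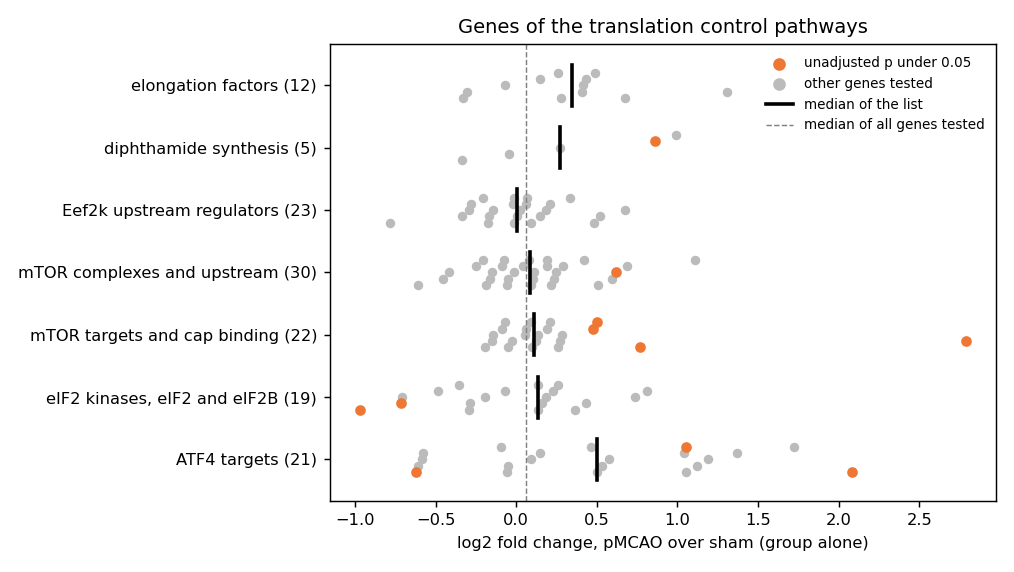
Log2 fold change of pMCAO over sham, group alone, for each tested gene of 7 translation control lists (points, number tested in brackets), with the median of each list (black line) and of all genes (dashed line, 0.06). Orange points have an unadjusted p under 0.05, and none passed the adjusted threshold. Eif4ebp3 is the point at 2.79.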

How the data were processed

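RNA of sorted live EpCAM+ cells was depleted of ribosomal RNA by cleavage. The authors aligned paired reads to GRCm38 with STAR and made the deposited counts, whole numbers per gene, with featureCounts (versions and strand setting not given in the sources used here). Deposited CPM values equalled each count over the sample's total, scaled, which held within 0.0005 for 190260 of 190260 values, and 0 sample columns were unmatched. The deposited log2 columns (fold change and average expression) and the deposited p-value columns hold the authors' own comparison and were not used. The authors' fit corrected for collection day, which the labels do not give.

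Genes passing filterByExpr (minimum count 10) were scaled by TMM, and limma-voom was fitted to all 12 samples with the group as its single term (R 4.3.3, edgeR 4.0.16, limma 3.58.1), with Benjamini-Hochberg adjustment over 14462 genes. A gene was called at an adjusted p of at most 0.05. Library runs (libraries 58 to 61, 62 to 65, 66 to 68 and 72) were an alternative. The members, lists and tests were chosen with earlier results of these data known. The genes named were the members, every pathway gene called, the 2 of each pathway list with the smallest unadjusted p, the 5 most correlated with Eef2k in each of 2 ways, and genes overlapping a member. Some genes that this rule names are not reported here. Atf4, Epcam, Ptprc, Sis and the stromal markers in the table were named after their values were seen. Marker sums, total counts, genes detected and the share of mitochondrial ribosomal RNA used two-sided exact permutation tests (smallest possible p 0.00126). Gene positions and exon lengths came from GENCODE M21 and promoters from RefSeq. Near-identical copies were transcripts of other genes at least 95% identical over 200 bases. Totals of 7418730 to 31925579 counts set the depth. Alternatives were DESeq2 1.42.0, edgeR's quasi-likelihood test, limma-trend, quality weights, other filters and scalings, library number, the replicate block and leaving out libraries. Code was tested on simulated data.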

Additional observations from a re-analysis of the deposited data

Results flagged for a closer look

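Of 52 groups of values tested for a sample far from the others of its group, 6 had one, next to 2.6 by chance (about 1 in 20). The 9 genes were tested both as CPM and as log2 CPM, and of these only Eif4ebp1 as CPM had such a sample, pMCAO replicate 1 at 30.1 CPM (6.88 to 12.9 in the other 4 pMCAO samples). On the log2 scale it had none. In the same library, the epithelial markers summed to 13564 CPM (6315 to 7012 in the other 4 pMCAO samples), the villus enterocyte markers summed to 90407 CPM (28817 to 41835), and 14257 genes were detected (15464 to 15766). It also had the lowest Eif4ebp2 level of its group. In sham replicate 7, the leukocyte markers summed to 757 CPM (59.9 to 321 in the other 6 sham samples) and the crypt and proliferation markers to 246 CPM (58.97 to 109.5). This library had the lowest Eef2k, Mtor, Rps6kb1, Eif4ebp2 and Eif2ak2 levels of the sham group. The part of these differences in the levels of the 9 genes was not tested.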

How the results depend on the processing

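With the group alone, the log2 fold change of Eef2k stayed between -2.29 and -1.83 when each library was left out. It was between -2.27 and -1.87 under the other alternatives without added ones. With library run as a term, added after the data were seen, leaving out each library of runs 1 to 3 gave -2.25 to -1.68. With the group alone, 0 genes passed the adjusted threshold (1219 at an unadjusted p under 0.05; 930 by edgeR). Eef2k was chosen for this difference, so its calls below describe the settings and support nothing about the gene. DESeq2 called 84 genes, limma-trend 1, sample quality weights 20, library run 69 and library number 265. Of the 9 genes, 1 (Eef2k) was called by DESeq2, quality weights, library run and library number, and of the pathway lists 1 (Eif4ebp3) by library number. Leaving out each library gave 0 to 18 genes and 0 to 1 of the 9: 5 genes without sham replicate 7, 8 without pMCAO replicate 1 and 18 without pMCAO replicate 3, each with Eef2k. The alternatives with library run added after the data were seen gave 23 genes by edgeR and 191 by DESeq2, each with Eef2k, and 2 pathway genes by DESeq2 (Eef1a1 and Eif4ebp3). With runs, leaving out each library gave 4 to 123 genes, 0 to 1 of the 9 (0 without sham replicate 6) and 0 to 2 pathway genes. Without run 1, 0 genes were called with or without the run term. The replicate block is given below, and the alternatives not named called 0 genes.

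Directions that turned were those of small differences. For Mtor the log2 fold change was 0.033 with quality weights and 0.27 without run 1, and -0.14 to 0.14 when each library was left out. For Eif4ebp1 it was -0.10 with quality weights and -0.048 to 0.28. For Eif2ak4 it was -0.0029 by edgeR, -0.013 by DESeq2, -0.0033 by limma-trend and -0.083 to 0.44. Between run 1 and later libraries, Eef2 was -0.22 in sham samples alone and -0.092 to 0.10, Rps6kb1 -0.16 to 0.090 and Eif4ebp2 -0.37 to 0.094 when each library was left out. That contrast called 2757 genes, 4670 by DESeq2, 967 in sham samples alone and 1038 to 3411 when each library was left out (lowest without pMCAO replicate 1), with 2 of the 9 in sham samples alone and 0 to 6. The cause of these changes was not tested.

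Replicate numbers did not pair the samples: correlations of same-numbered samples were 0.40, -0.24, -0.16, 0.16 and 0.08. The replicate block called 380 genes, 1 of the 9 (Eef2k, chosen for this difference) and 3 pathway genes (Eef1a1, Eif4ebp3 and Ppp1r15a). Low counts limit Eif2ak4 (11 to 523 counts).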
